A study of Mus musculus with 8 samples.

Results

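The genes described here make prostaglandins and receive them: Ptgs1 and Ptgs2, the cyclooxygenases, Ptges, Ptgis and Ptgds, the synthases that act after them, and Ptger1, Ptger2, Ptger3, Ptger4 and Ptgfr, receptors on the cell surface. They were chosen by gene symbol, whatever their values, and are 10 of the 50578 genes in the deposited count table. RNA-seq was run on wild-type mouse embryonic fibroblasts (MEFs), a primary culture used at passages 3 to 5, either untreated or kept in carbidopa, LY-364747 or CHIR-99021 at 10 µM. Carbidopa is an inhibitor of aromatic L-amino acid decarboxylase, and CHIR-99021 inhibits the kinase GSK3. LY-364747 is the labels' spelling of a compound that the study's text writes as LY-364947, an inhibitor of the TGF-β type I receptor. Each of the 4 groups had 2 libraries, 8 in all, and for the RNA-seq neither the length of treatment nor a vehicle control is given in the sources used here. The labels do not say whether the 2 libraries of a group came from separate cultures, so the p-values below may measure technical spread only.

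Prostaglandins are short-lived lipid signals. A phospholipase frees arachidonic acid from the membrane, a cyclooxygenase turns it into prostaglandin H, and terminal synthases turn that into prostaglandin E, prostacyclin, prostaglandin D and others, which act on G protein-coupled receptors of the same or neighbouring cells. In fibroblasts Ptgs2 is the inducible cyclooxygenase, switched on by growth factors and inflammatory cytokines, whereas Ptgs1 is expressed more steadily, and Ptges, the microsomal prostaglandin E synthase, is also inducible.

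The promoters of Ptgs2 and Ptges are shown because these genes went in opposite directions in all 3 treatments. Both run 5′ to 3′ on the gene's own strand, from 250 bases before to 30 bases after the RefSeq start site, in build GRCm38.p6. Ptgs2 lies on the plus strand (chr1:150099781-150100060) and Ptges on the minus strand (chr2:30903268-30903547). Capitals mark matches to the motifs searched.
Ptgs2: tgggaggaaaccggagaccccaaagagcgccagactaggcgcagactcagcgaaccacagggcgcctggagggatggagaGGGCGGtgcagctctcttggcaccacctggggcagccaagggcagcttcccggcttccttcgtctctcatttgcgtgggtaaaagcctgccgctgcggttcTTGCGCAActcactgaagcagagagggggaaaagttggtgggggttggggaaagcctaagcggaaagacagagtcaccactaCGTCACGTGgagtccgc
Ptges: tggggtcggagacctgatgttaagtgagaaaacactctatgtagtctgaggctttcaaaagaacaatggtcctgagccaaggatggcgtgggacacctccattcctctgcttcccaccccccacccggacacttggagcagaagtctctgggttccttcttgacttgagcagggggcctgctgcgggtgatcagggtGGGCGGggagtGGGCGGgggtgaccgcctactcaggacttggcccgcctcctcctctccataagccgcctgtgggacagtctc

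In the Ptgs2 window a GC box (GGGCGG) was followed by a C/EBP motif (TTGCNNAA) that began 69 bases before the start site. A core of the cAMP response element (TGACG, here on the opposite strand) and an E-box (CACGTG) overlapped by 2 bases just after it. The Ptges window held a pair of GC boxes and no other motif searched. Its RefSeq start site lies inside the longer gene model of the GENCODE annotation (chr2:30889471-30929863, minus strand). On both strands of the 32851 mouse promoter windows of 300 bases, the GC box was present in 35.7%, the TGACG core in 20.8%, the C/EBP motif in 10.8% and the E-box in 7.15%. TATAAA (13.6% of windows), CTTTGA, the TCF/LEF core (16.0%), and GCGNGGGCG, the Egr1 motif (5.55%), were also searched and were not found in either window. Promoters of 8 of the 10 genes were in the table used. A match is a run of letters and was not tested as a binding site.

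Depth was 15039566 to 20504338 counted reads per library. The 2 carbidopa libraries differed from each other more than any other pair (chi-square per degree of freedom of 37.9 over genes, against 4.57 to 10.0 in the other groups). The treated cells are labelled as hepatic-like. For this the study reports, by qRT-PCR, raised Alb, Hnf4a, Cyp1a1 and Cyp2a1 and lowered Acta2 and Wisp2. It also reports epithelial-like morphology, lipid and glycogen staining, and clustering near hepatic progenitor-like cells. In the counts used here none of 10 hepatocyte markers had enough reads to be tested, and 5 of them had no read in any library. Hnf4a, Alb and Apoa1 had the most reads. Their summed level was 0.129 to 0.223 CPM (the reads of a gene scaled to the size of the library) in MEFs and 0.518 to 1.18 CPM in treated cells. The summed level of 15 fibroblast markers, with Postn, Col1a1 and Dcn the most read, was 26550 to 26713 CPM in MEFs and 8895 to 10919 CPM after treatment. By the edgeR test described below, 12 were lower and 1 was higher in each treatment. Of all genes tested, 19.7%, 17.2% and 20.1% were lower and 18.0%, 13.7% and 18.7% higher with carbidopa, LY-364747 and CHIR-99021. Dcn averaged 1713 CPM in MEFs and 1946, 1850 and 1095 CPM in that order of treatments.

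In MEFs the cyclooxygenases were the most abundant transcripts of the set. On the scale of CPM per kilobase of exon, which allows levels of different genes to be compared, Ptgs1 stood at 16.8 ± 0.2 and Ptgs2 at 15.03 ± 0.80 (SD, n = 2 here and throughout). Ptger4 followed at 6.00 ± 0.45, then Ptges at 4.86 ± 0.26, Ptgis at 3.54 ± 0.07 and Ptger1 at 2.58 ± 0.39. Ptgfr (1.08 ± 0.04), Ptger3 (0.942 ± 0.017), Ptgds (0.331 ± 0.085) and Ptger2 (0.108 ± 0.030) were the least abundant. No neighbours in this order overlapped between the 2 MEF libraries. After each treatment Ptges came first, at 21.3 ± 0.3 with carbidopa, 21.5 ± 1.6 with LY-364747 and 17.0 ± 0.4 with CHIR-99021 per kilobase. Ptgs1 and then Ptgs2 came next in all 3. Some of the lower neighbours did overlap there: Ptger2 with Ptger3, Ptger3 with Ptgds and Ptgds with Ptgfr with carbidopa, and Ptgis with Ptger4 and Ptger2 with Ptger3 with CHIR-99021.

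**Figure D1:**
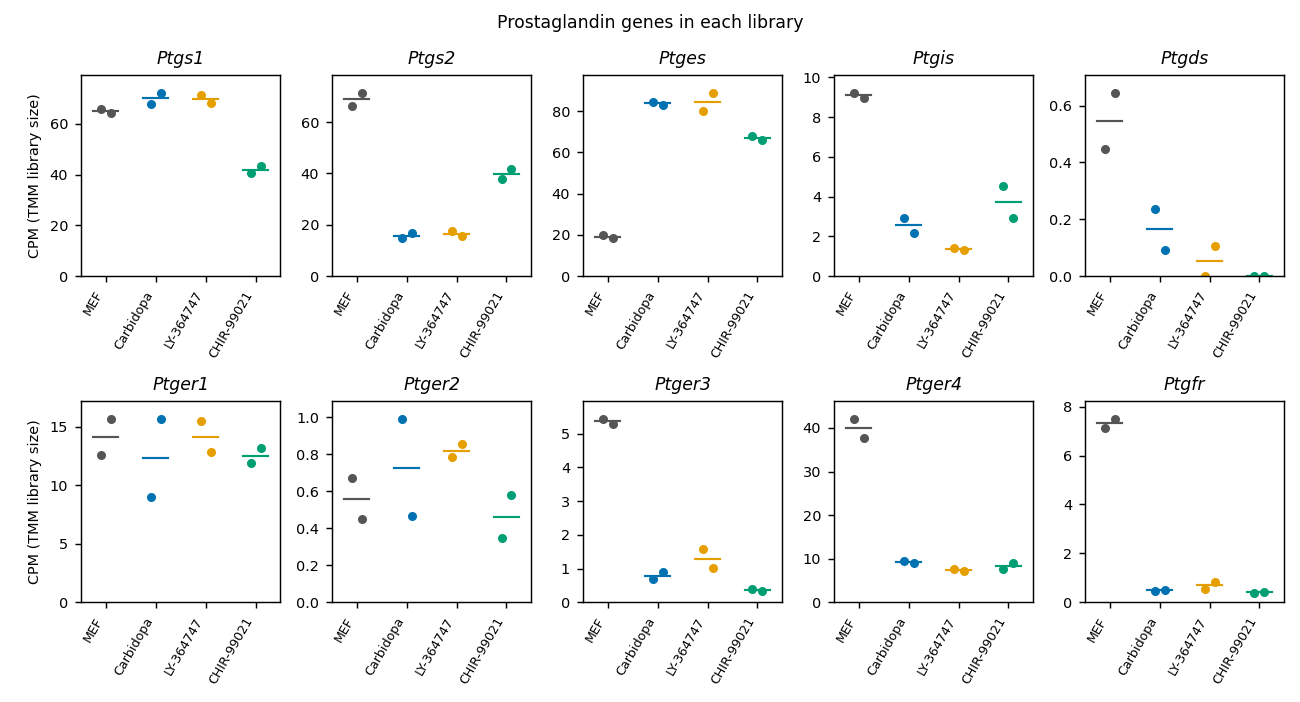
CPM of each of the 10 genes in every library (points) with the group mean (line), each panel with its own axis from 0; CPM used library sizes scaled by TMM. Ptgs2, Ptgis, Ptger3, Ptger4 and Ptgfr lie lower in all 6 treated libraries than in both MEF libraries, and Ptges lies higher. Ptgds also lies lower in all 6, but had at most 10 reads in any library.

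Of the 10 genes, 9 had enough reads for the edgeR test across 15154 genes. Ptgds did not. Among those tested, 3 receptors did not reach the minimum level in every library. Ptger2 reached it in 5 of the 8 libraries. Ptger3 reached it in 6, with neither CHIR-99021 library among them. Ptgfr reached it in 4, those of MEFs and LY-364747, so its carbidopa and CHIR-99021 levels lay under the minimum. With carbidopa, 1 gene was higher and 5 were lower than in MEFs at an adjusted p under 0.05, where 18.0% of all genes tested were higher and 19.7% lower. With LY-364747 the counts were also 1 higher and 5 lower, against 13.7% and 17.2% of all genes. With CHIR-99021 they were 1 higher and 6 lower, against 18.7% and 20.1%. Over the 9 genes tested, the median log2 change was -1.83, -2.05 and -0.79 in that order, and over all genes tested it was 0.037, 0.028 and 0.043. Ptges rose in all 3 treatments, Ptgs2, Ptgis, Ptger3, Ptger4 and Ptgfr fell in all 3, and Ptgs1 fell with CHIR-99021. The 3 comparisons share the same 2 MEF libraries, so a deviation of those libraries would enter all of them. Without the first or second carbidopa library, 6 or 7 of the genes were called with carbidopa, with Ptgs2 at -2.05 or -2.21 and Ptges at 2.12 or 2.15 on the log2 scale. In bulk RNA, fewer cells of a type and less RNA per cell cannot be told apart.

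Ptgs2 (ENSMUSG00000032487, chr1:150100031-150108227, plus strand), the inducible cyclooxygenase, was read at 66.3 and 71.4 CPM in MEFs. It was at 14.9 and 16.6 CPM with carbidopa, at 17.6 and 15.6 CPM with LY-364747 and at 37.8 and 41.7 CPM with CHIR-99021. The groups did not overlap except for carbidopa and LY-364747, and the CHIR-99021 libraries lay between those and MEFs. Ptgs2 was 4.37-fold lower with carbidopa (log2 fold change -2.13, SE 0.12, adjusted p = 4.97e-07) and 4.15-fold lower with LY-364747 (-2.05, SE 0.12, adjusted p = 7.18e-07). With CHIR-99021 it was 1.73-fold lower (-0.79, SE 0.12, adjusted p = 3.94e-04).

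Ptgs1 (ENSMUSG00000047250, chr2:36230426-36252272, plus strand), the other cyclooxygenase, was lower with CHIR-99021 alone among the treatments. Its CPM was 65.7 and 64.5 in MEFs, 67.8 and 72.3 in the carbidopa libraries, 71.2 and 68.2 with LY-364747, and 40.6 and 43.3 with CHIR-99021. The CHIR-99021 libraries lay well below those of MEFs, and the other treated libraries lay just above them. That difference was 1.55-fold (log2 fold change -0.63, SE 0.10, adjusted p = 6.11e-04). For carbidopa the log2 fold change was 0.11 (95% interval -0.11 to 0.32, adjusted p = 0.413) and for LY-364747 it was 0.10 (-0.12 to 0.31, adjusted p = 0.482).

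Because the cyclooxygenases moved unequally, their ratio within a library changed. Per kilobase, Ptgs2 stood at 0.897 ± 0.060 of Ptgs1 in MEFs and at 0.803 ± 0.020 with CHIR-99021. With carbidopa it stood at 0.190 ± 0.006 and with LY-364747 at 0.202 ± 0.011 of Ptgs1. With CHIR-99021 both transcripts were lower, and the ratio was slightly below that of MEFs, with no overlap between libraries.

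Ptges (ENSMUSG00000050737), which makes prostaglandin E from the cyclooxygenase product, was the only gene of the set that rose. Its CPM was 19.9 and 18.4 in MEFs, 84.6 and 82.9 in the carbidopa libraries, 80.2 and 88.9 with LY-364747, and 68.0 and 66.0 with CHIR-99021. Every treated library lay more than 3-fold above both MEF libraries. The increase was 4.38-fold with carbidopa (log2 fold change 2.13, SE 0.11, adjusted p = 2.08e-07), 4.42-fold with LY-364747 (2.14, SE 0.11, adjusted p = 2.11e-07) and 3.51-fold with CHIR-99021 (1.81, SE 0.11, adjusted p = 6.33e-07). Other prostaglandin E synthases had smaller fold changes. Ptges3, the cytosolic enzyme also known as the Hsp90 co-chaperone p23, had log2 fold changes of -0.14, -0.15 and -0.11 with carbidopa, LY-364747 and CHIR-99021, none past the test. Ptges2, the second microsomal enzyme, rose with CHIR-99021 (0.87, SE 0.21, adjusted p = 0.00795) and had values of 0.56 and 0.23 with carbidopa and LY-364747, not past the test. Per kilobase, Ptges stood at 0.061 ± 0.006 of Ptges3 in MEFs and at 0.293 ± 0.014, 0.297 ± 0.027 and 0.230 ± 0.010 in the same order of treatments.

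Ptgis (ENSMUSG00000017969, chr2:167191805-167240604, minus strand), prostacyclin synthase, went the other way. Both MEF libraries held about 9 CPM (9.22 and 8.97), whereas the carbidopa libraries held 2.92 and 2.19 CPM, those of LY-364747 held 1.40 and 1.33, and those of CHIR-99021 held 4.55 and 2.90. All treated libraries were below both MEF libraries, and the LY-364747 pair was the lowest. Its log2 fold change was -1.83 (SE 0.25, adjusted p = 2.79e-04), -2.73 (SE 0.28, adjusted p = 3.34e-05) and -1.29 (SE 0.25, adjusted p = 0.00226) with carbidopa, LY-364747 and CHIR-99021. The per-kilobase ratio of Ptges to Ptgis was 1.37 ± 0.05 in MEFs and 21.8 ± 4.1, 40.4 ± 4.5 and 12.3 ± 3.6 in the treated groups.

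Ptgds (ENSMUSG00000015090, chr2:25466709-25470046, minus strand), lipocalin-type prostaglandin D synthase, was near the limit of detection. It had 6 and 10 reads in MEFs, 5 and 2 in the carbidopa libraries, 0 and 2 with LY-364747, and 0 in both CHIR-99021 libraries. Scaled to depth, the carbidopa level was 0.297 of that in MEFs (95% counting interval 0.103 to 0.762) and the LY-364747 level 0.0989 (0.0110 to 0.421). With 0 reads, the CHIR-99021 level was at most 0.217 of that in MEFs by the same interval. These intervals cover counting error only.

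**Figure D2:**
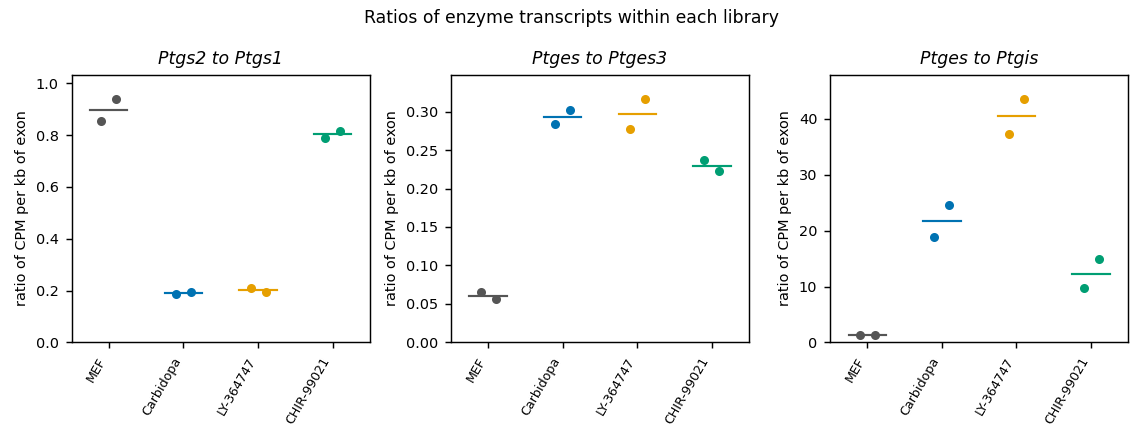
Ratios of enzyme transcripts within each library (points; lines are group means), each from CPM per kilobase of exon, with axes from 0. Ptgs2 to Ptgs1 is 0.897 in MEFs and 0.803 with CHIR-99021 but about 0.2 with the other compounds, whereas both ratios of Ptges are above the MEF values in every treated library.

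Among the receptors, 3 of 5 fell in each treatment, where 19.7%, 17.2% and 20.1% of all genes were lower with carbidopa, LY-364747 and CHIR-99021, and none rose, where 18.0%, 13.7% and 18.7% were higher. Ptger4 (ENSMUSG00000039942, chr15:5206661-5244187, minus strand), the EP4 receptor, which raises cAMP, was the most abundant receptor of the set in MEFs. It was at 42.0 and 37.7 CPM in MEFs, and at 9.41 and 9.003 CPM with carbidopa, 7.69 and 7.30 with LY-364747 and 7.66 and 9.05 with CHIR-99021. Every treated library was more than 4-fold below the lower MEF library. The log2 fold changes were -2.11 (SE 0.14, adjusted p = 1.34e-06), -2.41 (SE 0.14, adjusted p = 6.84e-07) and -2.25 (SE 0.14, adjusted p = 9.17e-07). Of its exon bases, 15.3% lie in a processed pseudogene on the opposite strand, which had at most 3 reads in any library. Exons of Ttc33, a protein-coding gene on that strand with 277 to 624 reads, cover 1.23%. The effect of these overlaps on the Ptger4 counts was not tested.

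Ptgfr (ENSMUSG00000028036, chr3:151796502-151837630, minus strand), the prostaglandin F receptor, had the lowest estimated log2 fold change of the tested genes in each treatment. Its reads numbered 96 and 116 in MEFs, 10 and 11 in the carbidopa libraries, 10 and 16 with LY-364747, and 7 in each CHIR-99021 library. That was 14.7-fold lower with carbidopa (log2 fold change -3.87, SE 0.30, adjusted p = 4.97e-06), 10.2-fold lower with LY-364747 (-3.35, SE 0.29, adjusted p = 1.17e-05) and 17.8-fold lower with CHIR-99021 (-4.15, SE 0.32, adjusted p = 4.80e-06). Few reads remained, so the size of these folds is loosely set (95% intervals of the log2 fold change -4.55 to -3.20, -4.01 to -2.70 and -4.87 to -3.43). The intervals of Ptger3 overlapped them in each treatment (-3.43 to -2.05, -2.71 to -1.39 and -4.61 to -3.01).

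Ptger3 (ENSMUSG00000040016, chr3:157566892-157645888, plus strand), the EP3 receptor, which lowers cAMP, had 73 and 82 reads in MEFs. It had 15 and 19 reads with carbidopa, 28 and 19 with LY-364747 and 7 and 6 with CHIR-99021. The treated libraries were all lower, with the CHIR-99021 pair lowest. The fold was 6.68, 4.14 and 14.0 lower with carbidopa, LY-364747 and CHIR-99021 (log2 fold change -2.74, SE 0.31; -2.05, SE 0.30; -3.81, SE 0.36), at adjusted p = 7.16e-05, 4.21e-04 and 1.88e-05.

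The other receptors did not pass the test. Ptger2 (ENSMUSG00000037759, chr14:44988195-45003820, plus strand), the EP2 receptor, which like EP4 raises cAMP, had 6 to 21 reads in every library, and the intervals of its log2 fold change were wide (-0.80 to 1.57, -0.64 to 1.75 and -1.56 to 1.05). At this depth a change of a few fold in Ptger2 could have been missed. Ptger1 (ENSMUSG00000019464, chr8:83666678-83672753, plus strand), the EP1 receptor, which raises calcium, was at 8.99 to 15.6 CPM in all 8 libraries. Its log2 fold changes were -0.20, 0.00085 and -0.17, and the 2 carbidopa libraries (8.99 and 15.6 CPM) spanned the range. Without the second of these it was called lower with carbidopa (-0.65, adjusted p = 0.0129). Its value is uncertain, since its exons are not unique to it and the strand setting of the counting is not given in the sources used here.

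**Figure D3:**
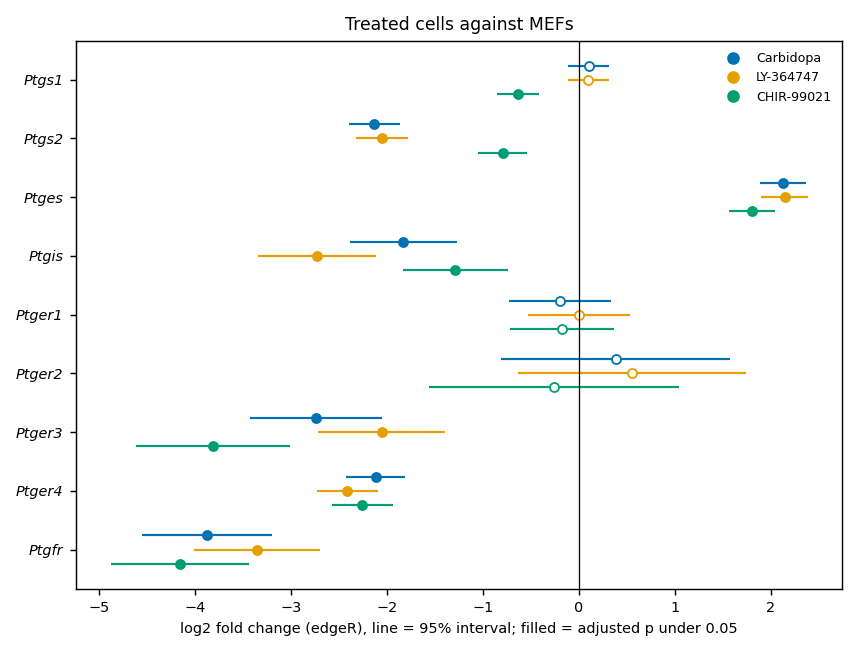
Log2 fold change of the 9 tested genes against MEFs with 95% intervals from edgeR, by treatment; filled points have an adjusted p under 0.05. Ptges alone lies above 0 past the test, Ptgs1 passes it with CHIR-99021 only, and Ptger1 and Ptger2 pass it in no treatment.

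Ptgir, the prostacyclin receptor, fell beside its synthase. Ptger1, whose value is uncertain, and Tbxa2r, the thromboxane receptor, were left out of the sum that follows, and the shares depend on that choice. The summed level per kilobase of Ptger2, Ptger3, Ptger4, Ptgfr and Ptgir was 10.8 ± 0.4 in MEFs, 2.50 ± 0.17 with carbidopa, 2.32 ± 0.24 with LY-364747 and 1.92 ± 0.13 with CHIR-99021. Ptger4 gave 55.5% ± 2.1 of the sum in MEFs, 55.5% ± 2.1 with carbidopa, 48.9% ± 6.8 with LY-364747 and 65.3% ± 3.4 with CHIR-99021. The share of Ptgfr was 10.0% ± 0.7 in MEFs and 2.92% ± 0.38, 4.44% ± 0.85 and 3.11% ± 0.19 after treatment.

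The compounds were also compared with each other, in 3 pairs at the same dose of 10 µM, with p adjusted over all genes within each pair. CHIR-99021 left more Ptgs2 and less Ptgs1 than either other compound. Against carbidopa, 1 of 9 genes was higher (6.62% of all genes tested) and 1 was lower (8.08%). Ptgs2 was 2.53-fold higher (log2 difference 1.34, SE 0.12, adjusted p = 1.02e-04) and Ptgs1 was 1.67-fold lower (-0.74, SE 0.10, adjusted p = 8.85e-04). Against LY-364747, 2 genes were higher (6.45% of all genes) and 3 were lower (7.69%). Ptgs2 was 2.4-fold higher (1.26, SE 0.12, adjusted p = 1.52e-04) and Ptgs1 1.66-fold lower (-0.73, SE 0.10, adjusted p = 9.61e-04).

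The other differences from LY-364747 were less secure. Ptgis was higher with CHIR-99021 (1.44, SE 0.29, adjusted p = 0.00937), and Ptger3 was lower (-1.76, SE 0.41, adjusted p = 0.0183). Ptgis lost its call without the first CHIR-99021 library (adjusted p = 0.101) or without the first or second LY-364747 library (0.0710 and 0.0652). Ptger3 lost it without the first or second CHIR-99021 library (0.110 and 0.0961) or the first LY-364747 library (0.164). Ptges was 1.26-fold lower (-0.33, SE 0.10, adjusted p = 0.0496), a call that 5 of 14 alternatives kept. It was lost without either MEF library (0.109 and 0.102), either CHIR-99021 library (0.224 and 0.207) or either LY-364747 library (0.133 and 0.297). With the replicate number as a block its adjusted p was 0.0788, and 4 members rather than 5 were called. Against carbidopa, Ptgis had a log2 difference of 0.54 (95% interval -0.04 to 1.13, adjusted p = 0.2001), not past the test. Ptges against carbidopa had a log2 difference of -0.32 (95% interval -0.54 to -0.10, adjusted p = 0.0560), not past the test, although it passed without the first or second carbidopa library (0.0493 and 0.0224).

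Between carbidopa and LY-364747 none of the 9 genes passed the edgeR test, against 0.0132% of all genes tested (2 genes, with 16 by DESeq2 and 1367 at an unadjusted p under 0.05 by edgeR). Ptgis alone among them had an unadjusted p under 0.05, and DESeq2 called 0 of them. The log2 difference, LY-364747 minus carbidopa, had a 95% interval of -0.20 to 0.35 for Ptgs2, -0.21 to 0.23 for Ptges, -0.22 to 0.21 for Ptgs1 and -0.62 to 0.03 for Ptger4. It was wider for Ptgis (-1.56 to -0.24, adjusted p = 0.519), Ptger3 (-0.08 to 1.46) and Ptgfr (-0.33 to 1.37), so larger differences in these genes remain within the error. Without the second carbidopa library 3816 genes and 2 of the members were called in this pair, Ptgis (-1.09, adjusted p = 0.0337) and Ptger1 (0.65, adjusted p = 0.0266).

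**Figure D4:**
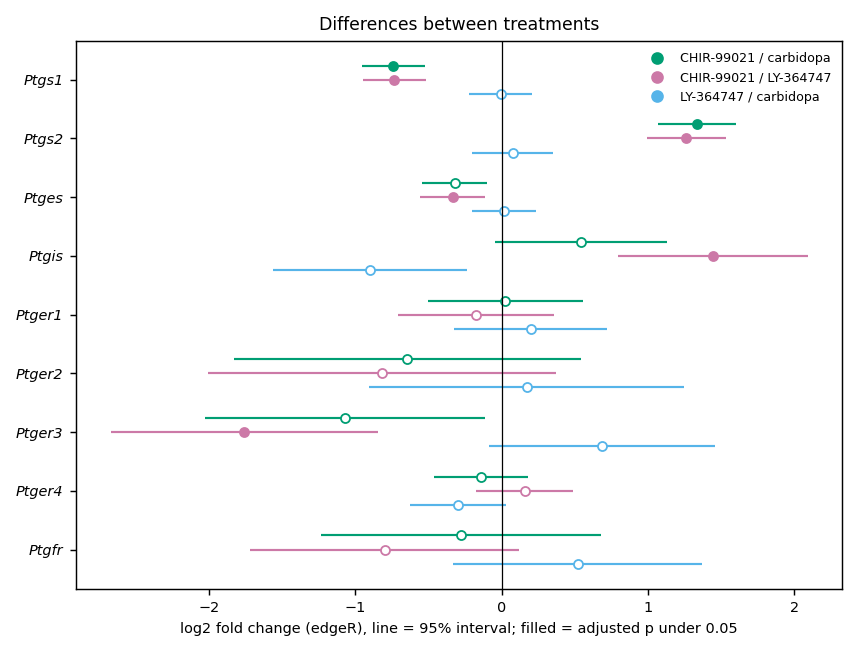
Log2 differences between treatments of the 9 tested genes with 95% intervals from edgeR, the first-named compound over the second; filled points have an adjusted p under 0.05. Ptgs2 lies to the right and Ptgs1 to the left of 0 for CHIR-99021 against both other compounds, and no gene passes the test between LY-364747 and carbidopa.

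Other genes of the pathway were taken from 7 lists. Their counts below are to be read against the 19.7%, 17.2% and 20.1% of all genes tested that were lower, and the 18.0%, 13.7% and 18.7% that were higher, with carbidopa, LY-364747 and CHIR-99021. In arachidonate release, 7 of 13 genes could be tested, and 3, 2 and 2 were lower with carbidopa, LY-364747 and CHIR-99021. Pla2g4a, the cytosolic phospholipase A2 that supplies the cyclooxygenases, rose with CHIR-99021 (0.43, SE 0.10, adjusted p = 0.00505), the only gene of the list to rise. Its log2 fold changes were 0.07 and 0.05 with carbidopa and LY-364747, not past the test. Pla2g7, a secreted enzyme that degrades platelet-activating factor, fell in all 3 (-2.45, -2.77 and -2.84), as did Pla2g15, a lysosomal phospholipase. Pla2g4c, another cytosolic phospholipase, fell with carbidopa.

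Among 10 other prostanoid synthases 9 were tested, of which 3, 0 and 2 were higher and 1 was lower in each treatment. The lower count is under the share of all genes, and the higher count with CHIR-99021 is near it. The lower one was Hpgds, the glutathione-dependent prostaglandin D synthase of haematopoietic cells (-1.45, SE 0.17; -1.37, SE 0.17; -3.17, SE 0.20). Cbr1, a carbonyl reductase that can convert prostaglandin E to F, rose with carbidopa (0.91, SE 0.20) and CHIR-99021 (0.60, SE 0.20). Akr1c18, an aldo-keto reductase, rose with carbidopa (1.28, SE 0.31).

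In transport and breakdown all 5 listed genes were tested and 1 rose. Slco2a1, the transporter that takes prostaglandins up into cells, was at 42.8 and 41.3 CPM in MEFs. It was at 99.1 and 138 CPM with carbidopa, 126 and 124 with LY-364747 and 98.5 and 113 with CHIR-99021. All treated libraries were more than 2-fold above MEFs (log2 fold change 1.5, 1.57 and 1.33, SE 0.15 each, adjusted p = 3.22e-05, 2.33e-05 and 7.20e-05).

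Of 5 further receptors and their partners, 3 were tested and all 3 fell in every treatment. These were Ptgir (-1.81, -1.91 and -2.56), the thromboxane receptor Tbxa2r (-2.66, -2.29 and -2.23) and Ptgfrn, a membrane protein that associates with the prostaglandin F receptor (-1.37, -1.27 and -0.97). In the leukotriene branch 7 of 11 genes were tested, and 2, 3 and 4 were lower and none was higher. Alox5ap, the 5-lipoxygenase activating protein, fell in each (-2.15, -2.87 and -4.31), as did Alox5, 5-lipoxygenase (-1.80, -1.58 and -1.56). Cysltr1, a leukotriene receptor, fell with LY-364747 and CHIR-99021, and Lta4h, leukotriene A4 hydrolase, with CHIR-99021.

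Of 13 genes that respond to cAMP and CREB or end that response, 12 were tested. In each treatment 7 fell and 2 rose, the latter near the shares of all genes. Pde4b, a cAMP phosphodiesterase, fell (-2.22, -2.14 and -2.31), as did the nuclear receptors Nr4a1 (-2.30, -2.32 and -2.16) and Nr4a2 (-2.74, -2.40 and -2.84) and the G protein regulator Rgs2 (-2.65, -2.95 and -2.90). Those that rose, named after their values were seen because they are few, were Dusp1, a MAP kinase phosphatase, in all 3 treatments (1.16, 0.92 and 1.19), the kinase Sik1 with carbidopa and LY-364747 (0.34 and 0.45), and Fosb, an AP-1 subunit, with CHIR-99021 (1.24). Of 12 inducers of Ptgs2 and inflammatory partners 9 were tested, of which 4, 4 and 3 fell and 2, 1 and 1 rose, the latter near the shares of all genes. Il1r1, the interleukin 1 receptor, fell (-1.98, -1.88 and -3.17), as did Egr1, an immediate early transcription factor (-1.81, -1.59 and -1.67), and Il1rn, the interleukin 1 receptor antagonist (-2.57, -2.63 and -2.29). Nfkbia, the NF-κB inhibitor, rose (1.37, 1.14 and 0.84).

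**Figure D5:**
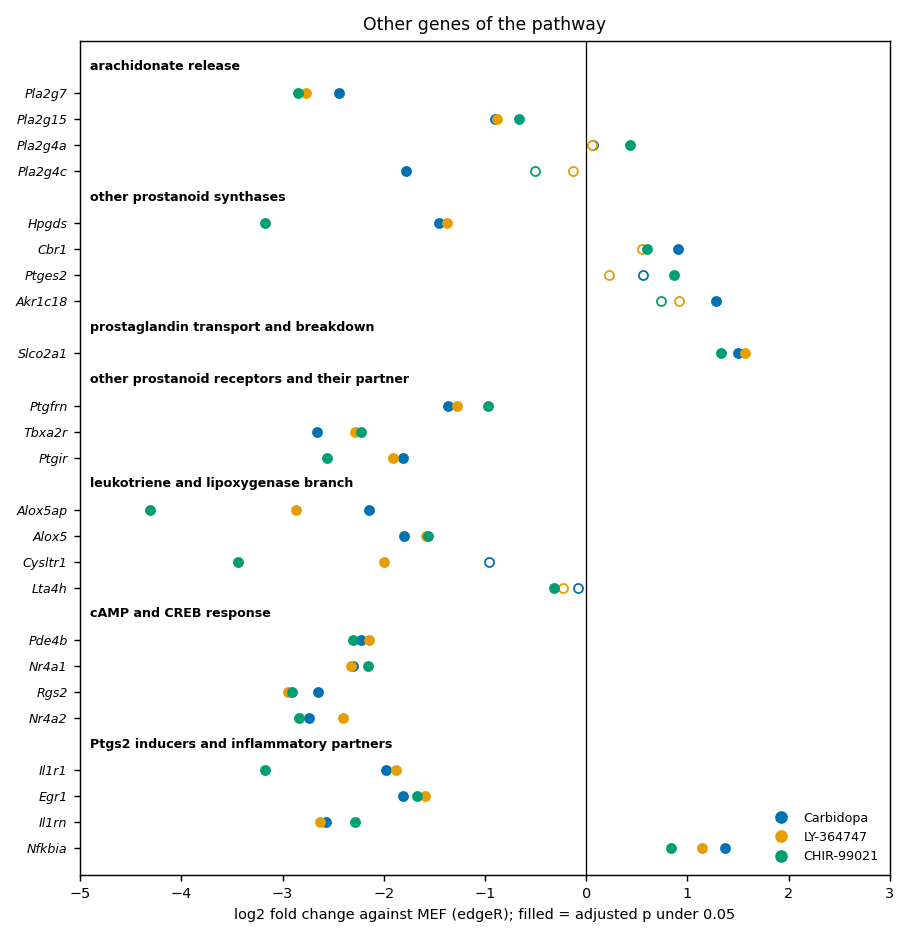
Log2 fold change against MEFs of the named genes of the 7 pathway lists (rows), with 1 point per treatment; filled points have an adjusted p under 0.05. The 3 receptor and partner genes and the 4 cAMP-responsive genes drawn, chosen by smallest p, lie left of 0 in all 3 treatments, whereas Slco2a1 and Nfkbia lie right of it.

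Markers of other cells that a fibroblast culture can hold moved at the same time. Marker counts here and in the next paragraph are to be read against the shares of all genes given for the pathway lists. All 15 macrophage markers (Lyz2, Cd68 and Laptm5 had the most reads) were tested, and 14, 14 and 15 fell, from a sum of 1345 to 1392 CPM in MEFs to 418 to 435, 313 to 325 and 105 to 112 CPM with carbidopa, LY-364747 and CHIR-99021. Hpgds, Alox5ap and Ptgs1 are also expressed by macrophages. Of these, Hpgds and Alox5ap fell in all 3 treatments, whereas Ptgs1 fell with CHIR-99021 only. Tbxas1, the thromboxane synthase, was named after its values were seen and was lower in none. It averaged 3.10 CPM in MEFs and 5.81, 4.50 and 3.15 CPM in the same order of treatments. Its carbidopa and LY-364747 libraries all lay above those of MEFs, whereas its CHIR-99021 libraries overlapped them. Of 9 smooth muscle and myofibroblast markers, led by Acta2, Tagln and Lmod1, 8 were tested. In the same order of treatments 7, 7 and 6 fell, and 1 rose with CHIR-99021. The sum of the 9 markers was 2908 to 3172 CPM in MEFs, 364 to 445 with carbidopa, 333 to 363 with LY-364747 and 692 to 812 with CHIR-99021. Among the treated groups it was highest with CHIR-99021. There Tagln averaged 552 CPM, against 276 with carbidopa and 210 with LY-364747. Lmod1 averaged 45.4 CPM there and 20.4 CPM in MEFs. Acta2 libraries overlapped between CHIR-99021 (134 and 94.6 CPM) and LY-364747 (114 and 93.4 CPM). The part of these cells in the results for Ptgs1, Ptgs2, Ptgis and the receptors was not tested.

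Other marker sums were small. The 8 mesothelial markers (Bnc1, Krt19 and Upk1b the most read) summed to 76.1 to 80.2 CPM in MEFs and 23.7 to 33.3 in treated cells, with 6, 6 and 5 lower and 2, 2 and 1 higher. The 9 endothelial markers (Kdr, Emcn and Vwf) summed to 23.4 to 25.3 and 11.7 to 16.2 CPM, with 2, 2 and 3 of 4 tested lower. Kdr, the most read, averaged 10.3 CPM in MEFs and 9.51, 9.64 and 12.8 CPM with carbidopa, LY-364747 and CHIR-99021. The 9 mast cell markers (Gata2, Ms4a2 and Kit) summed to 1.94 to 3.25 CPM in all libraries, with 1 of 2 tested higher and 1 lower. The 9 epithelial markers (Krt18, Cldn4 and Krt14) summed to 0.968 to 1.115 CPM in MEFs, 3.95 to 6.95 with carbidopa, 1.38 to 1.40 with LY-364747 and 5.05 to 5.18 with CHIR-99021, with 2, 0 and 2 of 4 tested higher. Their part in the results was not tested either.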

How the data were processed

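RNA-seq of 8 mouse libraries (4 groups of 2) was deposited by the authors as raw counts of reads per gene, without normalization. Per the labels' processing notes STAR 2.4.2a and DESeq2 were used with mm10, and the study's methods name featureCounts. The strand setting is not given in the sources used here. Labels and methods name different library kits. Groups and replicate numbers came from the sample titles. No fold changes of the authors were used.

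Counts were analysed in R 4.3.3 with edgeR 4.0.16 (TMM, filterByExpr, quasi-likelihood test, all 8 libraries in one fit with group as the only term, Benjamini-Hochberg over 15154 genes, threshold 0.05). SE is the log2 fold change over the square root of F. CPM used TMM library sizes. Exon lengths and positions came from GENCODE M21 (GRCm38), which held 50354 of 50578 identifiers (99.6%), and promoters from RefSeq (GRCm38.p6). The test was first run on simulated data. Alternatives were DESeq2 1.42.0, RLE size factors, other filters, a fit of only the groups compared, a replicate block and leaving out each library. Depth was 15039566 to 20504338 reads, and reads without molecular identifiers make counting intervals cover counting error only. The biological coefficient of variation was 11.0%.

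Text names all 10 members, up to 4 called genes with the smallest p per pathway list, the 3 most read markers per marker list and 3 genes per pattern. Ptges3 and Tbxas1 were added after their values were seen. The members, lists and motifs were chosen with earlier results of these data known. Same-numbered libraries did not deviate together (correlations -0.161 to 0.128), so numbers were not used as pairs. One marker list and the details of 1 overlap between genes are not reported here.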

Additional observations from a re-analysis of the deposited data

How the results depend on the processing

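All 19 member calls against MEFs were kept in every alternative that could test the gene, and of the 7 calls between treatments 4 were kept in every one. With the replicate block the members called were 6, 6 and 7 against MEFs with carbidopa, LY-364747 and CHIR-99021, 2 for CHIR-99021 against carbidopa, 4 for CHIR-99021 against LY-364747 and 0 for LY-364747 against carbidopa, so it ended 1 call, that of Ptges. Fitting only the groups compared called 1027 genes for CHIR-99021 against carbidopa, 3673 against LY-364747 and 0 for LY-364747 against carbidopa. For that last pair DESeq2 called 16 genes and no filter 329. Leaving out 1 library gave 3142 to 7996 genes with carbidopa against MEFs, 2841 to 6519 with LY-364747, 3433 to 7800 with CHIR-99021, 715 to 4632 for CHIR-99021 against carbidopa, 663 to 4228 against LY-364747 and 2 to 3816 for LY-364747 against carbidopa. Members called ranged from 2 to 5 for CHIR-99021 against LY-364747 and from 0 to 2 for LY-364747 against carbidopa. The cause was not tested.

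Signs turned only for log2 differences that were not called, up to 0.38 in size (Ptger2 with carbidopa against MEFs). Ptger1 with LY-364747 against MEFs was -0.0165 with DESeq2, -0.0182 with RLE size factors and -0.147 to 0.166 with 1 library left out. For LY-364747 against carbidopa, Ptgs1 was 0.0043 with DESeq2 and RLE, 0.0023 with at least 10 counts in every library and 0.0012 with only the groups compared, and Ptges was -0.0018 with no filter. Left-out libraries gave that pair -0.053 to 0.038 for Ptgs1, -0.0063 to 0.16 for Ptgs2, -0.065 to 0.093 for Ptges, -0.147 to 0.65 for Ptger1 and -0.27 to 0.80 for Ptger2. They also gave -0.65 to 0.145 for Ptger1 and -0.247 to 0.83 for Ptger2 with carbidopa against MEFs, -0.67 to 0.066 for Ptger2 with CHIR-99021 against MEFs, and -0.317 to 0.48 for Ptger1 in CHIR-99021 against carbidopa. A left-out library leaves an arm of 1, assumed to vary like the other groups. Depth limited Ptgds and Ptger2 most, with at most 10 and 21 reads in a library.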

Other observations

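Ptgs2os2, a long noncoding RNA named for its position opposite Ptgs2 but sharing no exon bases with it, was read 28 and 46 times in MEFs, 2 and 3 times with carbidopa, 7 and 4 times with LY-364747 and 4 and 5 times with CHIR-99021. Carbidopa changed it by -4.36 on the log2 scale (SE 0.53, adjusted p = 1.14e-04), LY-364747 by -3.04 (SE 0.47, adjusted p = 6.22e-04) and CHIR-99021 by -3.25 (SE 0.48, adjusted p = 4.45e-04) by edgeR. It was chosen after its values were seen. Its CHIR-99021 and LY-364747 libraries overlapped, at 0.230 and 0.290 against 0.393 and 0.213 CPM.

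The genes whose log2 CPM followed each cyclooxygenase most closely over the 8 libraries are given as a description, since the points share libraries and groups. For Ptgs2 they were Wisp1 (Pearson r = 0.997), a secreted protein of the CCN family, Ncam1 (0.996), a cell adhesion molecule, and Grik5 (0.996), a glutamate receptor subunit. Wisp1 averaged 929 CPM in MEFs, 41.5 with carbidopa, 48.5 with LY-364747 and 265 with CHIR-99021, the same order of groups as Ptgs2. Such likeness was common, with 529 of 15145 genes above 0.9. For Ptgs1 they were C1s1 (0.992), a complement protease, Colec12 (0.991), a scavenger receptor, and Shcbp1 (0.989), with 279 genes above 0.9. For Ptgis they were Adat3 (0.982), Mcub (0.981) and AI506816 (0.980), with 337 genes above 0.9.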
